A study of Mus musculus with 41 samples.

Results

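The mouse chromosome 19 locus described here holds 4 genes: Anxa1, Aldh1a1 and the long noncoding RNAs E030003E18Rik and C730002L08Rik. They were taken by symbol and position from the 24371 genes of the count tables, and all 4 had rows in each of the 4 tables. The choice was made with earlier results of these data known, so the members' own differences are given as a description, and whether a member passed the threshold of the fit over all genes is part of that description and supports nothing. RNA came from fetal mouse lung at embryonic day E18.5. In the first comparison, pregnant dams carrying Twist2Cre;Rosa26mT/mG fetuses received 1 mg/kg dexamethasone, a synthetic glucocorticoid, or saline at E18.5. Fetal lungs were taken 2 h later and pooled by genotype, and cells sorted as GFP+ and tdTomato- gave 4 dexamethasone and 2 saline pools. GFP in this reporter marks cells in which Cre driven by Twist2, a mesenchymal gene, has been active. The CD106 libraries comprised 2 CD106+ fractions, 2 CD106- fractions and 1 CD106+ library treated with 1 mg/kg dexamethasone. CD106 is the surface protein encoded by Vcam1, and no mouse strain, genotype or time after injection was stated for these 5 libraries. Single cells came from wild-type C57Bl6/J fetuses whose dams received 2 mg/kg dexamethasone (15 cells) or saline (11 cells) at E17.5, 24 h before harvest. Replicates are separate libraries, and whether 2 pools shared a litter was not stated, so errors cover the spread between these libraries.

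Anxa1 encodes annexin A1, a calcium-dependent phospholipid-binding protein that is known as a glucocorticoid-responsive mediator of the resolution of inflammation and that signals through formyl peptide receptors. Aldh1a1 encodes retinaldehyde dehydrogenase 1, which oxidises retinaldehyde to retinoic acid, the ligand of the retinoic acid receptors. Retinoic acid guides lung branching and alveolar formation, and Cyp26 enzymes break it down. No function is given here for the noncoding pair.

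Both noncoding genes lie within the annotated span of Aldh1a1 (RefSeq, GRCm38.p6). Aldh1a1 spans chr19:20492583-20643463 on the plus strand, E030003E18Rik chr19:20492715-20556410 and C730002L08Rik chr19:20534527-20552330, which places C730002L08Rik inside the E030003E18Rik span as well. Anxa1 lies 101.9 kb upstream of Aldh1a1, at chr19:20373434-20390671 on the minus strand. Aldh1a7, a near-identical copy of Aldh1a1 and not a member, lies 49.5 kb downstream at chr19:20692953-20727556. Aldh1a1 has 2 annotated starts, 109.4 kb apart. The upstream start lies 132 bases before that of E030003E18Rik, and the downstream start lies 45.6 kb beyond the end of E030003E18Rik. The use of strand in counting is not given in the sources used here, and how many reads of the overlapping genes, or of Aldh1a1 and Aldh1a7, were shared between them was not tested. The counts were separate in some samples: CD106+ library 2 and CD106- library 2 had 292 and 270 Aldh1a1 counts with 0 for both noncoding RNAs, and 2 dexamethasone cells had 355 and 133 Aldh1a1 counts with 0 for Aldh1a7. In 1 saline cell these copies had expected counts of 91.0 and 1.01.

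**Figure D1:**
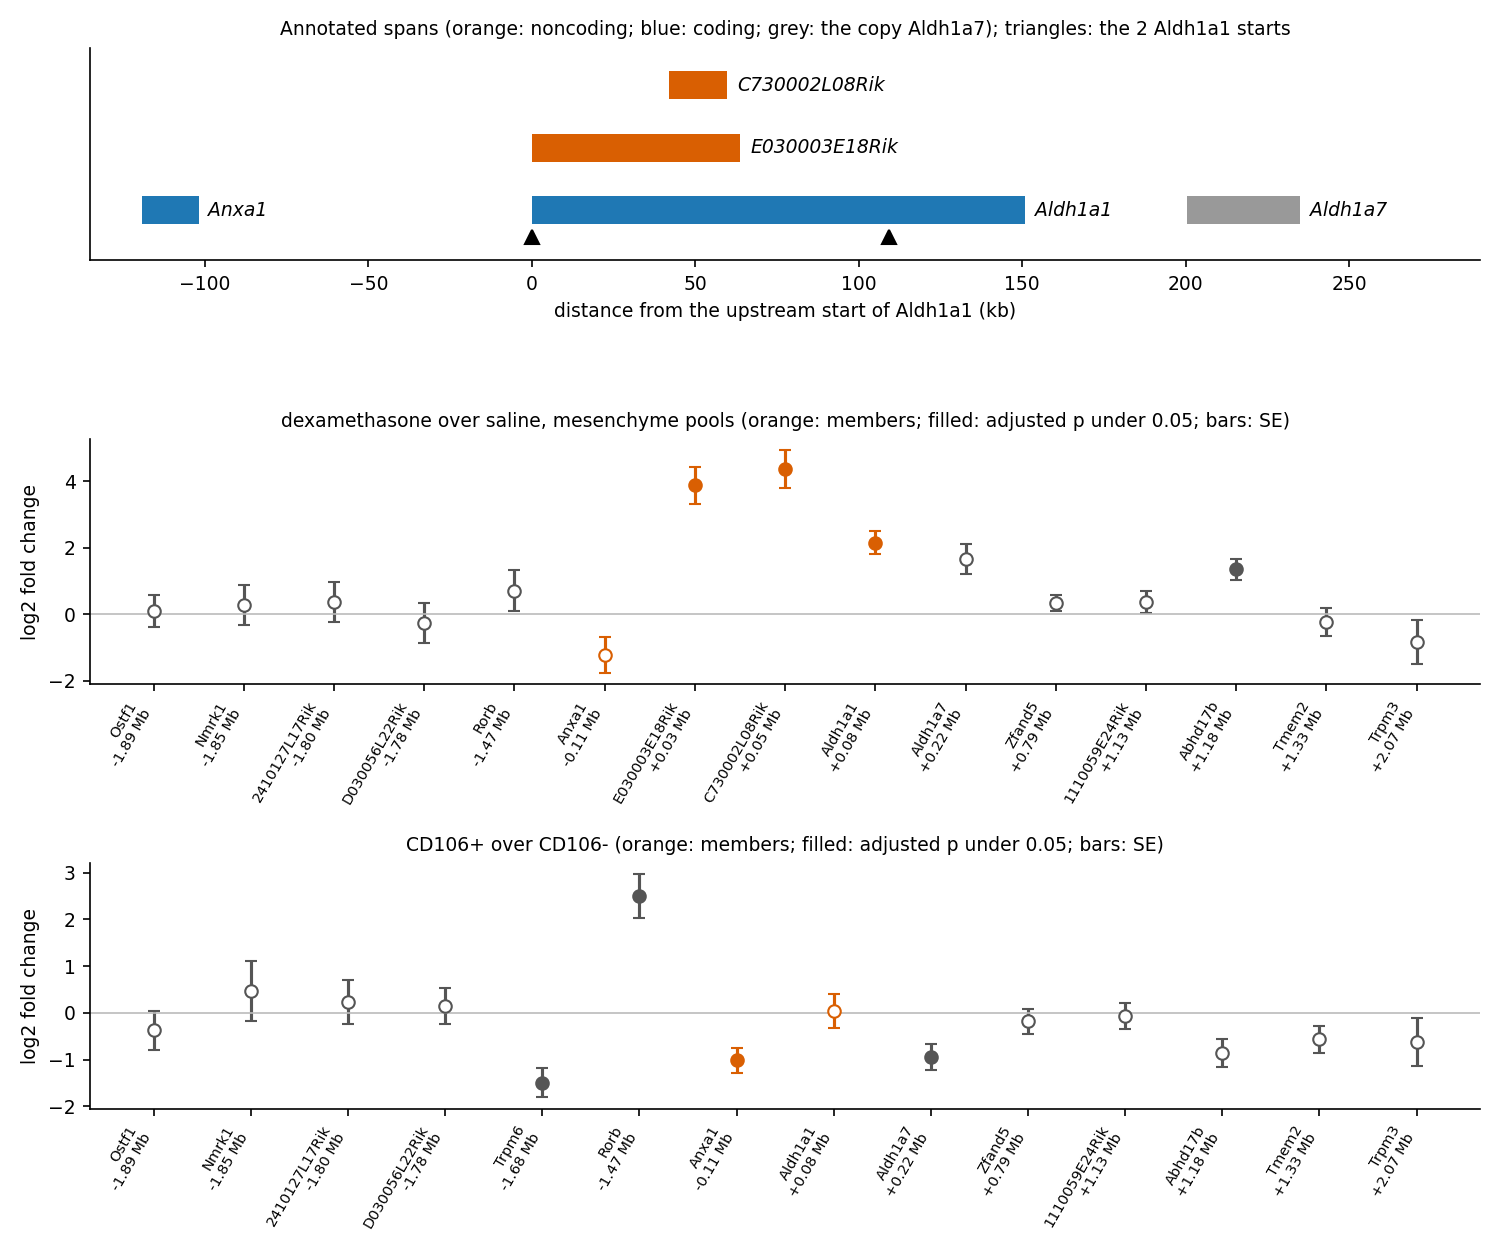
Top, annotated spans by distance from the upstream Aldh1a1 start in kb. Middle and bottom, log2 fold change with its standard error for the members and the tested genes within 2 Mb, ordered by the distance of the span's centre in Mb. E030003E18Rik, C730002L08Rik and Aldh1a1 stand above their tested neighbours in the mesenchyme comparison (3.87, 4.35 and 2.15), while Anxa1, the nearest member upstream, stands at -1.23. Neither noncoding RNA was high enough to be tested in the CD106 comparison.

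The sequences around these starts are shown to describe the overlapping start regions and the sequence shared by the copies. The marked bases lie before the starts, so they do not show which reads can be separated. RefSeq start regions matched 3 of the 4 members and Aldh1a7. The first 2 sequences overlap. Capitals in the upstream Aldh1a1 sequence (chr19:20492333-20492582, plus strand) mark the 118 bases that also open the E030003E18Rik region (chr19:20492465-20492764, plus strand). Capitals in the E030003E18Rik sequence mark the 6-base arm AGAACA of the glucocorticoid response element.
Aldh1a1 upstream start: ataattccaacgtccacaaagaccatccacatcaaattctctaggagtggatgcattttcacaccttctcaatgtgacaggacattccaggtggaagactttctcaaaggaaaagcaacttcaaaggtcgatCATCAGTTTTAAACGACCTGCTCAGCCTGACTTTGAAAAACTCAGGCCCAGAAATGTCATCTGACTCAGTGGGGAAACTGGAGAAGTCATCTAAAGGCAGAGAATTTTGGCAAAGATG
E030003E18Rik: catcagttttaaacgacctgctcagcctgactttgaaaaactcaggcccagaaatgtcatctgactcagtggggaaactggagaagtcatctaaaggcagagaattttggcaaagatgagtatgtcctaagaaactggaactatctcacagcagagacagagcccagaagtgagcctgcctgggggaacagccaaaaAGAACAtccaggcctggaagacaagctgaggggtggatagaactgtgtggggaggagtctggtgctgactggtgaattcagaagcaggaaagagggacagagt
The arm begins 53 bases before the E030003E18Rik start on the plus strand. Regions of 300 bases, from 250 before a start to 50 after it, were searched on both strands. The arm occurred in 6233 of 32851 such RefSeq regions (19%). The full element (AGAACA, any 3 bases, then TGTTCT), with up to 2 mismatches, was found at none of the 5 starts examined and in 1.84% of all regions. Anxa1, Aldh1a7 and both Aldh1a1 starts held no copy of the arm. A match is a description of letters, and its absence describes this window alone.

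The downstream Aldh1a1 region (chr19:20601718-20601967, plus strand) and that of Aldh1a7 (chr19:20727557-20727806, minus strand) follow, with capitals on the 65-base run that they share, which begins 94 bases before each start.
Aldh1a1 downstream start: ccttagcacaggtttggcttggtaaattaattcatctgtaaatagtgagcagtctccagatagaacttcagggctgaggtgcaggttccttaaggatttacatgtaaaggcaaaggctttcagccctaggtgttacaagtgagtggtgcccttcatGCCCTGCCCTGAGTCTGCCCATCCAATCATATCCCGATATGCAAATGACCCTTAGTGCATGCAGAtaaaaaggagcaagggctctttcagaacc
Aldh1a7: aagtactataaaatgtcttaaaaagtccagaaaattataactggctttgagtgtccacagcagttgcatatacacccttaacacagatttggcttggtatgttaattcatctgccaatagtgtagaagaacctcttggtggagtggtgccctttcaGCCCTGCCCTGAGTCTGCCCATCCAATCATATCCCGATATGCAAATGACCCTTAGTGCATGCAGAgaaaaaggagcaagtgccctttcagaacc
Over the full regions, 233 of 322 aligned columns were identical (72.4%).

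Dexamethasone pools had the higher levels of the noncoding pair and of Aldh1a1, and Anxa1 went the other way with overlapping groups. Levels are CPM, counts scaled to the library total, and no level is compared between genes. C730002L08Rik stood at 26.8, 40.4, 58.1 and 53.6 CPM in dexamethasone pools 1 to 4 (113, 119, 129 and 142 counts) and at 2.99 and 1.65 CPM in the saline pools (5 and 4 counts). Every dexamethasone pool lay above both saline pools, with means of 44.7 ± 14.1 (SD, n = 4) and 2.32 ± 0.953 (n = 2), a ratio of 19.3. The fitted log2 fold change of C730002L08Rik was 4.35 ± 0.57 (SE).

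E030003E18Rik stood at 22.5, 31.3, 48.6 and 46.4 CPM in the dexamethasone pools (95, 92, 108 and 123 counts). In the saline pools it stood at 1.80 and 3.29 CPM (3 and 8 counts). The groups did not overlap, and pools 3 and 4 were the higher of the treated pools for this RNA as for C730002L08Rik. Its means were 37.2 ± 12.5 and 2.54 ± 1.06 CPM, a ratio of 14.6, and its log2 fold change was 3.87 ± 0.57.

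Aldh1a1 stood at 105, 195, 109 and 161 CPM in the dexamethasone pools and at 37.7 and 29.2 CPM in the saline pools. Again no saline pool reached a treated pool, but the order among treated pools differed from that of the noncoding RNAs, with pool 2 highest. The means of Aldh1a1 were 142 ± 43.3 and 33.5 ± 6.01 CPM, a ratio of 4.26, and the log2 fold change was 2.15 ± 0.33.

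Anxa1 stood at 5.92, 8.16, 24.3 and 15.5 CPM in the dexamethasone pools and at 45.5 and 18.9 CPM in the saline pools. Dexamethasone pool 3 lay above saline pool 2, so the groups overlapped. Its log2 fold change was -1.23 ± 0.54. Without a library it ranged from -1.76 to -0.39, the latter without saline pool 1.

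Of the 4 members, 3 passed an adjusted p of 0.05 in edgeR's quasi-likelihood test, all higher, where 2.69% of the 11356 genes tested passed (1.95% higher, 0.740% lower). Among all genes tested, 9.99% had every dexamethasone pool above every saline pool, the pattern of these 3 members. Since the members were chosen on this comparison, nothing is read from these counts. With limma-voom 1 of the 4 passed, Aldh1a1.

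**Figure D2:**
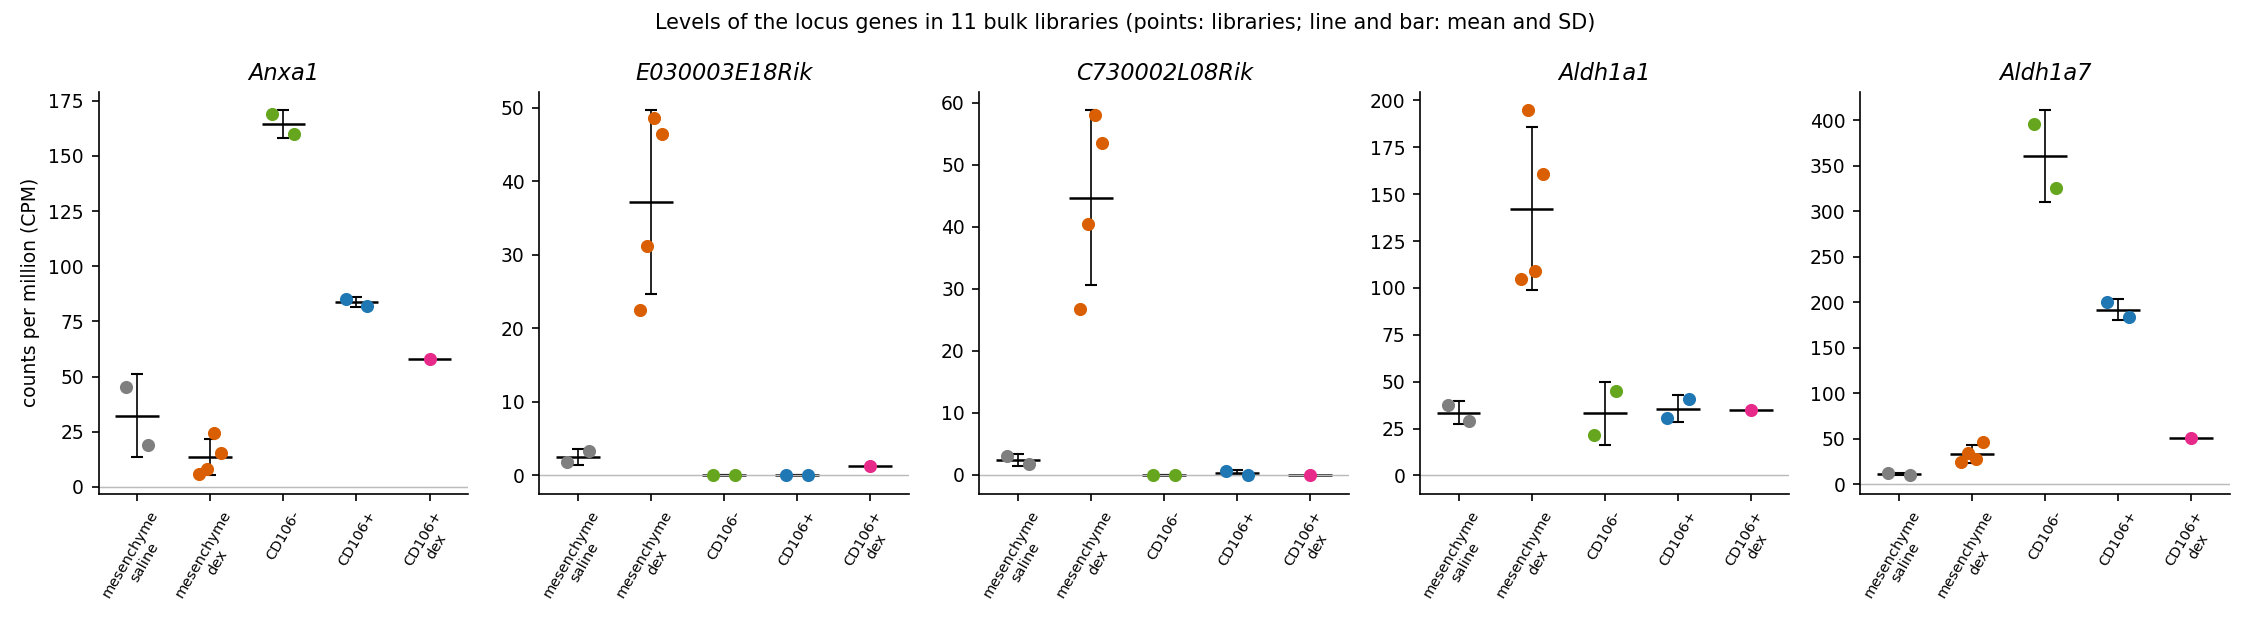
CPM of the members and Aldh1a7 in 11 bulk libraries; points are libraries, lines and bars the mean and SD. Dexamethasone mesenchyme pools hold the highest levels of E030003E18Rik, C730002L08Rik and Aldh1a1, while CD106- libraries hold the highest of Anxa1 and Aldh1a7.

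The pools carried mesenchymal RNA, with 9 of 9 mesenchymal markers summing to 15547 to 24046 CPM and 15 epithelial markers to 33.1 to 343 CPM. The epithelial sum varied within groups, at 33.1, 44.5, 343 and 267 CPM in dexamethasone and 305 and 38.2 CPM in saline pools. Leukocyte markers summed to 10.9 to 26.1 CPM in dexamethasone pools and to 121 and 23.9 CPM in saline pools 1 and 2. The part of these cells in the Anxa1 values was not tested. The treated and saline pools differed in sex and in cartilage and muscle RNA. Xist, expressed from the inactive X chromosome of females, stood at 374, 11111, 12.6 and 6.59 CPM in the dexamethasone pools and at 33133 and 20880 CPM in the saline pools. The summed level of the 6 chondrocyte markers found in the tables was 7.58 to 310 CPM in dexamethasone and 484 to 1260 CPM in saline pools, with none at 0 in either group. Smooth muscle markers (5 of 5) summed to 1021 to 1088 and 1606 to 1910 CPM, and mesothelial markers (7 of 8) to 48.3 to 77.5 and 113.5 to 113.7 CPM. With Xist as a covariate the log2 fold changes of C730002L08Rik, E030003E18Rik, Aldh1a1 and Anxa1 were 3.89, 3.28, 2.43 and -2.39. With the mean log2(CPM + 1) of the chondrocyte markers as a covariate they were 5.21, 4.62, 1.92 and 0.63, and Aldh1a1 then missed the threshold. Fewer cells of a type and less RNA per cell cannot be told apart in pools. Both saline pools lay above every dexamethasone pool in Xist and in the chondrocyte sum. With so few pools, these fits cannot tell either covariate apart from the treatment. The part of sex or of cartilage RNA in these differences was therefore not tested.

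Within a pool, the ratio of 2 members does not depend on library scaling. C730002L08Rik lies inside the E030003E18Rik span, and the part of shared reads in the proportion of this pair was not tested. The noncoding pair kept nearly the same proportion in every treated pool. E030003E18Rik made up 45.7, 43.6, 45.6 and 46.4% of the summed counts of the pair in dexamethasone pools 1 to 4, with exact binomial 95% intervals that all lay between 36.8 and 52.7% (counting error only). In the saline pools it made up 37.5% (3 of 8 counts; 8.52 to 75.5%) and 66.7% (8 of 12; 34.9 to 90.1%). These saline intervals contain the treated shares, so a change in the proportion of the pair was not detectable at this depth.

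Neither noncoding RNA kept a fixed proportion to Aldh1a1. C730002L08Rik made up 17.2 to 34.8% of its summed counts with Aldh1a1 in the dexamethasone pools, and 7.35 and 5.33% in the saline pools. E030003E18Rik made up 13.8 to 30.9% in dexamethasone, and 4.55 and 10.1% in saline. The treated shares lay above both saline shares for each RNA, and pool 3 held the highest share of both. The saline shares rest on 3 to 8 noncoding counts a library.

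The share of Anxa1 in its counts summed with Aldh1a1 was lower in the dexamethasone pools. Anxa1 made up 54.7 and 39.3% of these summed counts in the saline pools and 5.35, 4.02, 18.2 and 8.76% in the dexamethasone pools, with no overlap. The 4.26-fold higher mean of Aldh1a1 lowers this share by itself, and the levels of Anxa1 overlapped between the groups. The shares therefore do not show a change in Anxa1. Aldh1a7 made up 24.1 and 25.3% of its counts with Aldh1a1 in saline and 14.9 to 22.2% in dexamethasone pools.

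**Figure D3:**
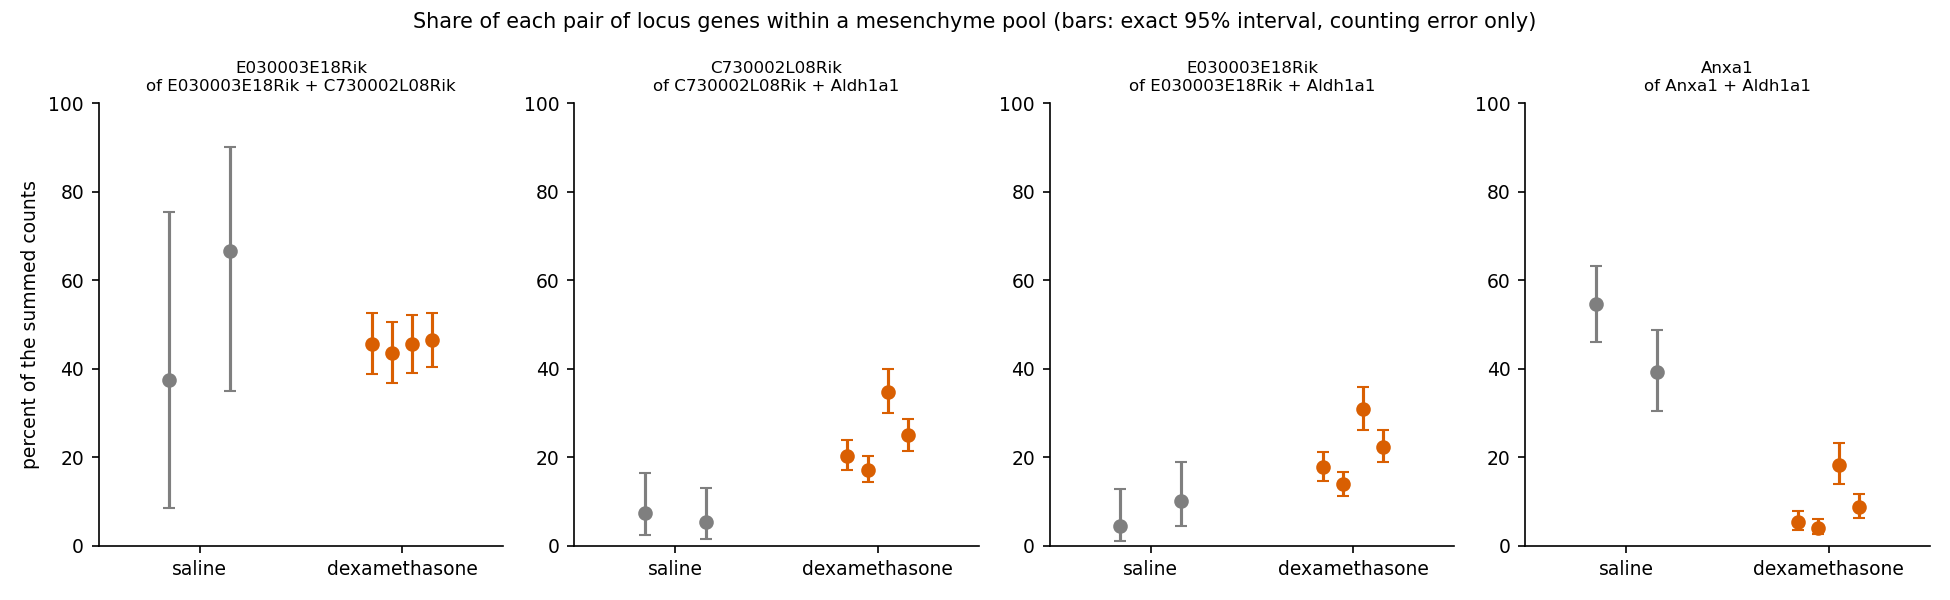
Percent of the summed counts of a pair taken by the first gene, per mesenchyme pool, with exact 95% intervals for counting error. E030003E18Rik holds 43.6 to 46.4% of the noncoding pair in treated pools. Noncoding shares against Aldh1a1 are higher in treated pools, with some intervals overlapping those of saline pools, and Anxa1 shares are lower.

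Likeness of pattern was measured as the root mean square difference of log2(CPM + 1), centred on the mean, over the 6 mesenchyme pools for the noncoding RNAs. By this measure, chosen after the data were seen for these 2 RNAs, the closest of 13621 genes to C730002L08Rik was E030003E18Rik, at 0.39 against a median gene at 1.91. The closest to E030003E18Rik was Eif2s3y, a Y-linked gene, at 0.33, ahead of 4833411C07Rik at 0.38 and C730002L08Rik at 0.39. Eif2s3y stood at 22.1 to 53.9 CPM in the dexamethasone and at 2.99 and 4.94 CPM in the saline pools. Its level, like that of Xist, marks the sex of the pooled fetuses, which differed between the groups. Over all 11 bulk libraries and 12434 genes, the closest to Anxa1 were Meg3 (0.28), Rab27b (0.30) and Tpbg (0.31), and the closest to Aldh1a1 were Krt10 (0.32), Trp53inp1 (0.35) and Ston1 (0.36). Aldh1a1 and Anxa1 differed by 1.71 from each other over the 6 pools.

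Of 43 annotated genes within 2 Mb of the members, 16 were in the tables, 2 of them under older symbols, and 11 were tested in the mesenchyme comparison. Of these, 1 rose, none fell and 10 did not pass (2.69% of all genes were called). Their median log2 fold change was 0.33 against -0.01 over all genes tested. Abhd17b, which encodes a depalmitoylating enzyme, stood at 83.1, 93.5, 57.2 and 103.7 CPM in the dexamethasone pools and at 35.3 and 34.1 CPM in the saline pools. Its log2 fold change was 1.35 ± 0.32 (adjusted p = 0.0288), and the call was lost without each of 5 of the 6 pools, dexamethasone pool 3 being the exception (adjusted p 0.0532 to 0.143). Aldh1a7 stood at 24.1, 34.0, 27.5 and 46.0 CPM against 12.0 and 9.87 CPM, with no overlap, but missed the threshold (log2 fold change 1.66 ± 0.45, adjusted p = 0.0553). DESeq2 gave Aldh1a7 an adjusted p of 0.0175. The closest tested gene beyond Aldh1a7, Zfand5, had a log2 fold change of 0.33 ± 0.24 (adjusted p = 0.614). The other 8 had log2 fold changes of 0.10 (Ostf1), 0.28 (Nmrk1), 0.37 (2410127L17Rik), -0.26 (D030056L22Rik), 0.71 (Rorb), 0.36 (1110059E24Rik), -0.23 (Tmem2) and -0.84 (Trpm3). Between Anxa1 and Aldh1a1, the noncoding 1500015L24Rik had 0 counts in all dexamethasone pools and 2 counts over the saline pools.

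Of 23 other genes of retinoid handling 14 were tested in mesenchyme, 1 rose and none fell (2.69% of all genes were called). Their log2 fold changes were above 0 for 6 and below 0 for 8, with a median of -0.41. The riser was Cyp26b1, which degrades retinoic acid. It stood at 27.0, 25.5, 15.8 and 24.5 CPM in the dexamethasone pools and at 4.79 and 2.47 CPM in the saline pools. Its log2 fold change was 2.76 ± 0.57 (adjusted p = 0.0108; 0.111 without saline pool 2). Aldh1a2, the main retinoic acid synthase of embryonic mesenchyme, had a log2 fold change of -0.51 (adjusted p = 0.650), the receptors Rxra and Rarg 0.85 (0.384) and -1.04 (0.465).

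In the aldehyde dehydrogenase family, 13 of 18 genes were tested and 1 rose (2.69% of all genes were called), with a median of 0.52, and 6 of the 13 had an unadjusted p under 0.05 against 13.8% of all genes tested. Aldh3a2, which oxidises fatty aldehydes, stood at 135, 138, 152 and 139.5 CPM in the dexamethasone pools and at 57.5 and 65.4 CPM in the saline pools. Its log2 fold change was 1.26 ± 0.25 (adjusted p = 0.00909), lost without saline pool 1 or 2 (0.0510 to 0.0663). Aldh2 (0.95, adjusted p = 0.0935) and Aldh1l1 (3.69, adjusted p = 0.144) did not pass. Of 17 annexins and annexin A1 partners 11 were tested and none passed, with a median of 0.04 and a range of -0.60 to 0.96; DESeq2 also called 0 of them, and 0 of the 11 had an unadjusted p under 0.05 in edgeR, against 13.8% of all genes tested. Anxa2, Anxa4, Anxa5 and S100a10 had log2 fold changes of -0.40, 0.33, -0.22 and 0.96.

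Between the CD106 fractions, Anxa1 was the member that differed. Anxa1 stood at 85.2 and 82.1 CPM in CD106+ and at 169 and 160.0 CPM in CD106- libraries. The CD106- libraries were both higher, with means of 164 ± 6.31 and 83.7 ± 2.18 CPM (n = 2 each), and the log2 fold change of CD106+ over CD106- was -1.01 ± 0.27. Both CD106+ libraries lay below both CD106- libraries for 22.1% of the 12364 genes tested. Aldh1a1 stood at 30.5 and 40.9 CPM in CD106+ and at 21.4 and 44.9 CPM in CD106- libraries, and these groups overlapped, with a log2 fold change of 0.04 ± 0.37. Its 44.9 and 21.4 CPM in libraries of the same fraction lie further apart than the fraction means. C730002L08Rik had 3 counts in 1 CD106+ library and 0 in the other 3 libraries, and E030003E18Rik had 0 in all 4. At these depths of 4987180 to 7133940 counts a library, 3 counts correspond to 0.421 to 0.602 CPM, so levels below that were not detectable. Both RNAs were too low to be tested, and of the 2 members tested 1 passed, lower, where 10.0% of 12364 genes passed (6.67% higher, 3.35% lower; 19.8% at an unadjusted p under 0.05). The Anxa1 call was lost without either CD106- library.

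The fractions differed in cell content beyond Vcam1, which stood at 619 ± 96.4 CPM in CD106+ and 2.17 ± 1.17 CPM in CD106- libraries. The 15 epithelial markers summed to 2702 and 4325 CPM in CD106+ and to 5635 and 6184 CPM in CD106- libraries. The mesenchymal markers (9 of 9) summed to 6378 and 10263 CPM in CD106+ and to 967 and 1359 CPM in CD106- libraries. Epcam, an epithelial surface protein, stood at 202 ± 4.65 and 417 ± 107 CPM. The part of epithelial cells in the Anxa1 difference was not tested.

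Near the locus, 12 genes were tested between the fractions, of which 1 was higher and 2 lower in CD106+ (10.0% of all genes were called). Rorb, a nuclear receptor gene, stood at 31.3 and 25.0 CPM in CD106+ against 5.96 and 3.83 CPM (log2 fold change 2.49 ± 0.47, adjusted p = 0.000581). Trpm6, a magnesium channel gene, stood at 39.1 and 23.5 against 86.8 and 85.4 CPM (-1.49 ± 0.32, adjusted p = 0.00241). Aldh1a7 stood at 200.1 and 184 against 396 and 325 CPM (-0.95 ± 0.28, adjusted p = 0.0295; 0.239 and 0.446 without a CD106- library). In these 4 libraries Aldh1a7 held 81.8 to 94.9% of its counts summed with Aldh1a1, and in the mesenchyme pools 14.9 to 25.3%. The tables come from different sorts, and this contrast was not tested.

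Of 13 retinoid genes tested between the fractions, 4 were higher and 2 lower in CD106+. Of all genes tested, 10.0% were called (6.67% higher, 3.35% lower), a share that also applies to the annexin and aldehyde dehydrogenase lists below. The lower retinoid genes were Aldh1a2 and Aldh1a7, and Aldh1a7 is counted again among the neighbours and the aldehyde dehydrogenases. Aldh1a2 was lower, at 6.23 ± 0.306 against 46.8 ± 1.25 CPM (log2 fold change -2.95 ± 0.39, adjusted p = 7.18e-06). Lrat, which esterifies retinol, and Rbp4 had fold changes of 4.21 and 3.35 on the log2 scale that lost their calls without 4 and 3 of the 4 libraries in turn. The annexin list gave 1 higher gene of 11, Anxa6 (1.05, adjusted p = 0.0303), a call lost without CD106+ library 2 or either CD106- library (0.267 to 0.398). The aldehyde dehydrogenases gave 1 higher of 13, Aldh8a1, with 30 counts over the CD106+ libraries and 0 in CD106- (adjusted p = 0.00952; lost without CD106+ library 1 or either CD106- library), and 2 lower, Aldh1a2 and Aldh1a7.

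In the 1 dexamethasone-treated CD106+ library, known steroid targets stood above both untreated CD106+ libraries, but Aldh1a1 did not, and C730002L08Rik was at 0. With 1 library there is no test. Errfi1, a feedback inhibitor of the EGF receptor, stood at 1513 CPM against 295 and 272, Klf9 at 137 against a mean of 17.2 ± 0.239, Glul at 289 against 79.6 and 96.3, and Fkbp5 at 49.6 against 12.6 and 35.5 CPM. Aldh1a1 stood at 35.1 CPM, between the untreated libraries at 30.5 and 40.9. The log2 ratio of (CPM + 1) of Aldh1a1 was -0.02, against 2.06 on the same scale in mesenchyme.

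C730002L08Rik had 0 counts in the treated CD106+ library. E030003E18Rik had 5 counts, or 1.32 CPM (exact Poisson 95% interval 0.428 to 3.08, counting error only), and 0 in both untreated libraries. Anxa1 stood at 57.8 CPM, below both untreated libraries (log2 ratio -0.53, against -1.20 in mesenchyme). Aldh1a7 stood at 50.1 CPM against 200.1 and 184 (-1.92, against 1.51 in mesenchyme).

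That library also differed in cell content. Its 7 endothelial markers summed to 2309 CPM against 93.5 and 116 CPM in the untreated CD106+ libraries, with none at 0. Pecam1 stood at 508 against a mean of 19.3 ± 3.90 CPM, Epcam at 27.4 against 205 and 198, and Scgb1a1, a club cell secretory gene, at 210.3 against 4.41 and 4.77. Vcam1 itself stood at 268 against 551 and 687 CPM. The part of these differences in the member values was not tested.

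**Figure D4:**
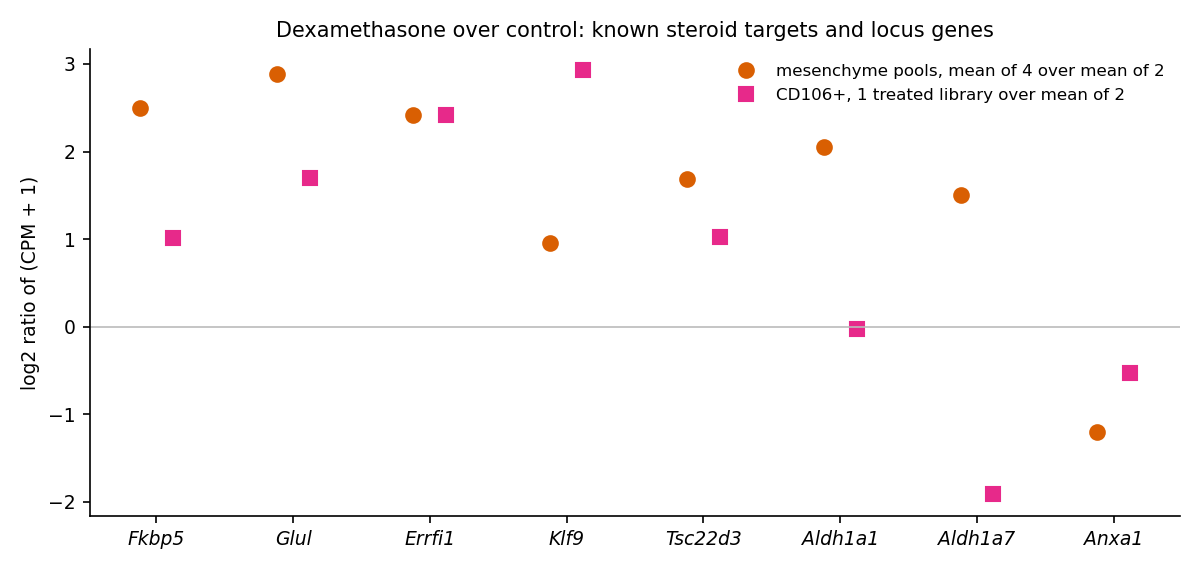
Log2 ratio of (CPM + 1) of dexamethasone over control in mesenchyme pools (circles) and in the single treated CD106+ library (squares). The 5 steroid targets lie above 0 in both; Aldh1a1 lies at 2.06 in mesenchyme and at -0.02 in CD106+, and Anxa1 below 0 in both.

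Across the bulk groups, C730002L08Rik and E030003E18Rik were highest in dexamethasone mesenchyme, followed by saline mesenchyme, and stood at 0 to 1.32 CPM in the 5 CD106 libraries. Aldh1a1 was highest in dexamethasone mesenchyme (142 CPM), and its other 4 groups, at 33.1 to 35.7 CPM, lay within each other's spread. Anxa1 was ordered CD106- (164 CPM), CD106+ (83.7), treated CD106+ (57.8), saline mesenchyme (32.2) and dexamethasone mesenchyme (13.5), and the last 2 overlapped. The tables hold different sorts, and these orders across them are a description.

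In single cells at 24 h the members were sparse, and no cell held both noncoding RNAs. C730002L08Rik had a count in 1 and E030003E18Rik in 2 of 15 dexamethasone cells, and in 0 and 1 of 11 saline cells. So few positive cells cannot show whether the 2 RNAs occur in the same cells. Each treatment counts as 1 sample, so there is no test. Aldh1a1 had a count in 3 of 15 dexamethasone cells (20%; exact binomial 95% interval 4.33 to 48.1%) and in 1 of 11 saline cells (9.09%; 0.230 to 41.3%). The positive treated cells held 371, 168 and 10.7 CPM, and the saline cell 103 CPM. Summed over cells, Aldh1a1 stood at 38.6 CPM (exact Poisson interval 35.3 to 42.1) in dexamethasone and 6.13 CPM (4.93 to 7.52) in saline, with 70.0% of the treated sum from 1 cell. The steroid targets did not share 1 direction in these sums: Fkbp5 stood at 53.6 CPM (5 of 15 cells) in dexamethasone and 139 CPM (7 of 11) in saline, with 68.9 and 87.2% of its counts from 1 cell, Errfi1 at 137 and 9.09 CPM, and Glul at 119 and 84.6 CPM. These intervals cover counting error only.

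Anxa1 had a count in 7 of 15 dexamethasone and 6 of 11 saline cells, and 1 cell in each group held 83.5 and 90.5% of the sum. That saline cell had Ptprc, a leukocyte gene, at 460 CPM, where the other 25 cells had at most 23.2 CPM. C730002L08Rik had 5 counts in 1 dexamethasone cell and 0 in all 11 saline cells, which allows up to 27.3% of cells with a count (3 of 11). E030003E18Rik had 4 and 3 counts in 2 dexamethasone cells and 15 in 1 saline cell. Of the 3 Aldh1a1-positive dexamethasone cells, 1 also held E030003E18Rik.

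The labels name no cell type, and Col1a2, a fibroblast collagen gene, had counts in 26 of 26 cells, whereas Epcam had none. Pecam1, an endothelial gene, had counts in 6 of 15 dexamethasone and 9 of 11 saline cells (24.2 and 347 CPM of the sums). The saline cell with E030003E18Rik had Pecam1 at 1323 CPM. All 15 dexamethasone columns and no saline column carry a name prefix, so a processing set and the treatment cannot be told apart, and 1 cell code occurs in both sets.

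**Figure D5:**
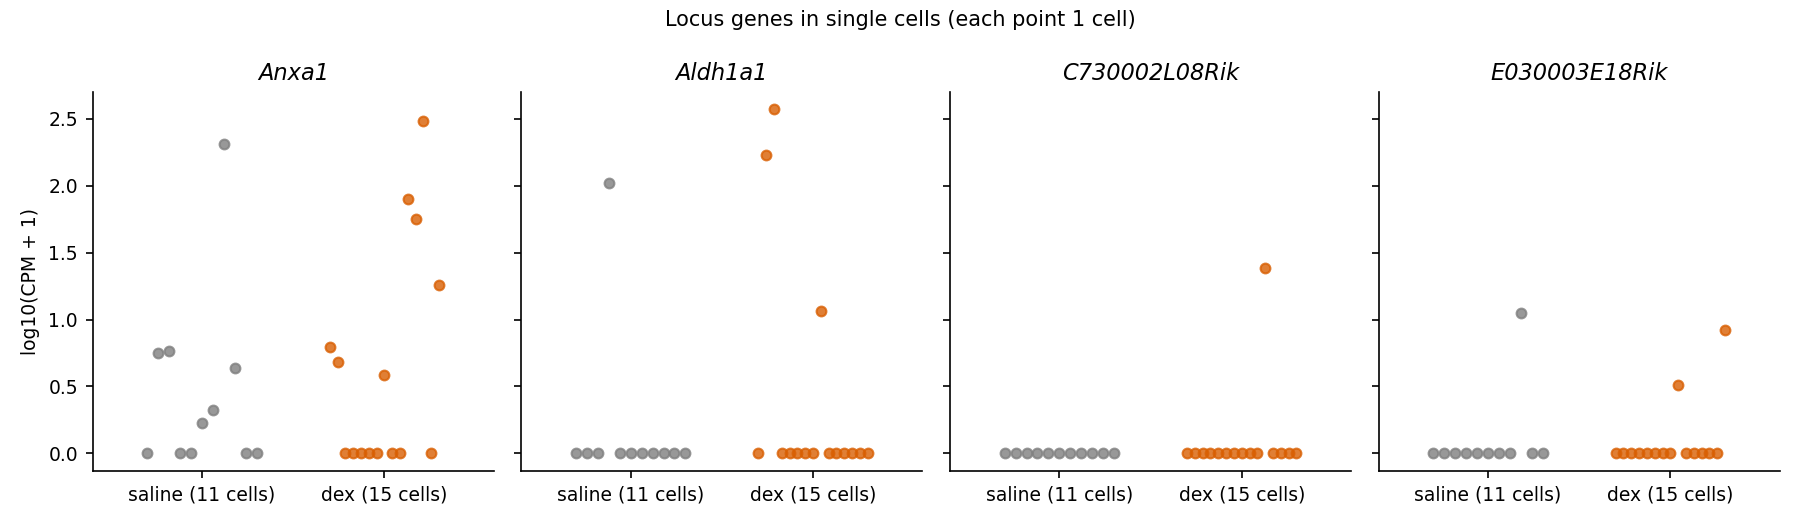
Log10(CPM + 1) of the members in each single cell, 11 saline and 15 dexamethasone. Most cells lie at 0 for Aldh1a1 (3 treated and 1 saline cell above 0), C730002L08Rik (1 treated) and E030003E18Rik (2 treated, 1 saline).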

How the data were processed

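The deposited tables hold the authors' expected counts per gene symbol, as their fractional values show (5.35 to 9.21% of values per bulk library were not whole). Per the submitters' processing notes the build was mm10 and Trim Galore, Bowtie2, TopHat2, HOMER, MACS2 and Partek were listed, without versions or roles; the counting rule is not given in the sources used here. The treated CD106+ column is named by a code absent from the labels; it was matched through that sample's description, the 1 that names its table. Accessibility samples (4) were not used here. The ribosomal precursor Rn45s held 0.902 to 9.83% of bulk counts.

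Totals were 1670900 to 4224240 counts in mesenchyme pools, 3790540 to 7133940 in CD106 libraries and 215623 to 1788000 in cells. Counts were rounded, filtered with filterByExpr, scaled by TMM and compared with edgeR 4.0.16 (quasi-likelihood, robust, R 4.3.3), only the compared groups in each fit, with Benjamini-Hochberg adjustment at 0.05 over all genes tested. CPM use the column total, log2 ratios a pseudocount of 1 CPM. Cells were neither clustered nor screened for doublets. Alternatives were other scalings and filters, DESeq2 1.42.0, limma-voom (limma 3.58.1), covariates, a replicate block, windows of 1 and 5 Mb and left-out libraries. The fits were tested on simulated data.

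Members and lists were chosen with earlier results of these data known. Genes named are the members, tested neighbours, up to 4 genes of each list by smallest p in each comparison, the 3 closest in pattern, 5 steroid targets and 12 checks of sort, sex and cell content; 1500015L24Rik, Eif2s3y and Col1a2 were named after their values were seen, the pattern search for the noncoding RNAs was added, and 1 gene that the rule names is not reported here. Of 24371 symbols, 23065 matched the RefSeq table.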

Additional observations from a re-analysis of the deposited data

Results flagged for a closer look

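In the dexamethasone mesenchyme pools, 1 pool stood apart from the other 3 for 7 of the 57 sets of 4 values examined, where chance marks about 1 in 20. These were Tmc1 at 1.89 CPM and Gda at 8.16 CPM, both neighbours of the locus at low counts, Fkbp5 at 260 CPM, Tsc22d3 at 125 CPM, Xist at 11111 CPM, Col2a1 at 247 CPM and Ptprc at 12.2 CPM. No member of the locus was among them.

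Of 54 genes listed, those without a count in the treated and untreated CD106+ libraries, such as Tmc1, could not be compared. For 2 of the others, every dexamethasone mesenchyme pool moved one way and the treated CD106+ library the opposite way. Aldh1a7 was higher in treated mesenchyme and stood at 50.1 CPM in the treated CD106+ library, below both untreated ones. Wt1, a mesothelial gene, was lower in treated mesenchyme and stood at 2.37 CPM in the treated CD106+ library, above both untreated ones. Neither contrast between the 2 settings was tested. Msln, another mesothelial marker, was higher in treated mesenchyme, at a mean of 4.96 ± 1.83 against 1.01 ± 0.265 CPM (SD), with 2 counts in each saline pool. Neither Wt1 (adjusted p = 0.309) nor Msln (adjusted p = 0.354) passed in edgeR in mesenchyme. The levels of these 2 markers did not share 1 direction, without a call for either.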

How the results depend on the processing

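Of 250 recomputed values, 190 stayed within the tolerance used (1.5 times for counts, the spread between libraries for values, which can include a change of sign near 0), 60 moved beyond it, and none of the called ones reversed. Genes called in mesenchyme (306) numbered 598 with no filter, 504 with DESeq2, 154 with the replicate block, 186 with Xist and 27 with chondrocyte markers as a covariate, and 179 to 335 without a library (179, 186 and 193 without dexamethasone pool 1, dexamethasone pool 4 or saline pool 1); members called numbered 1 with limma-voom and 3 to 3 without a library. With Xist as a covariate Anxa1 and E030003E18Rik had log2 fold changes of -2.39 and 3.28; with chondrocyte markers Anxa1, C730002L08Rik and E030003E18Rik had 0.63, 5.21 and 4.62. Without a library the ranges were -1.76 to -0.39 (Anxa1), 1.94 to 2.41 (Aldh1a1), 3.90 to 4.84 (C730002L08Rik) and 3.60 to 4.35 (E030003E18Rik).

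Replicate numbers are shared between groups, but same-numbered libraries deviated with correlations of -0.054 and 0.050 in mesenchyme and 0.014 in CD106, and no label says what a number marks, so they are treated as sharing only a number; with 2 libraries a fraction, the CD106 value is a single correlation and cannot show that pairing is absent. With the block, calls in mesenchyme were 0 for neighbours, 0 for retinoid genes and 0 for aldehyde dehydrogenases, and 0 for annexins in CD106; the count of members called was still 3 in mesenchyme and 1 in CD106, with Anxa1 at -2.04 and -1.02, and the Aldh1a7 call in CD106 was lost (adjusted p = 0.0866). DESeq2 called 2 neighbours, 2 retinoid genes and 3 aldehyde dehydrogenases in mesenchyme and 2 annexins in CD106. Windows of 1 and 5 Mb gave 0 and 2 called neighbours in mesenchyme and 1 and 9 in CD106. Without a library, calls in mesenchyme ranged over 0 to 1 for neighbours, 0 to 1 for retinoid genes, 0 to 0 for annexins and 0 to 2 for aldehyde dehydrogenases. In CD106 they ranged over 546 to 2756 genes (2756 without CD106+ library 1, 546 and 686 without CD106- library 1 or 2), 0 to 1 members, 2 to 5 neighbours, 2 to 7 retinoid genes, 0 to 6 annexins and 1 to 4 aldehyde dehydrogenases, with Anxa1 at -1.12 to -0.91 and Aldh1a1 at -0.43 to 0.72.

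In the treated CD106+ library the log2 ratio of Anxa1 was -0.42 on TMM-scaled sizes, -0.39 from edgeR with both fractions and -0.55 to -0.50 without a library, and that of Aldh1a1 -0.22 to 0.20. The share of dexamethasone cells with 5 or more counts of E030003E18Rik was 0%, and that of saline cells without those above 100 CPM of Pecam1 0%. With a pseudocount of 5, the dexamethasone minus saline difference in log2 ratio to Aldh1a1 was 1.28 for C730002L08Rik and 0.91 for E030003E18Rik. The cause of these changes was not tested. The 3 to 8 counts of the noncoding RNAs in saline pools limit their folds and shares.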
